A study of Mus musculus with 4 samples.

Results

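Translation initiation factor genes were followed in B16F10 cells, a mouse melanoma line, with and without knockdown of Lmna, which encodes the nuclear lamins A and C. The genes were chosen by symbol alone: every gene of the deposited count matrix whose symbol starts with Eif and a digit from 1 to 6, leaving out the Eif2ak genes, which encode kinases. This rule took 51 of 24421 genes, and no measured value entered it. They were grouped by the factor or complex to which their products belong.

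Initiation is the stage of protein synthesis at which a ribosome is placed on the start codon of an mRNA. The small ribosomal subunit carries eIF1, eIF1A, eIF3 and eIF5, receives the initiator tRNA from eIF2, and is brought to the capped end of the mRNA by eIF4E, the cap-binding protein, eIF4G, a scaffold, and eIF4A, an RNA helicase. eIF2B reloads eIF2 with GTP, eIF4E-binding proteins keep eIF4E from eIF4G, and eIF5B joins the large subunit. Tumor cells that grow fast depend on this machinery, and both eIF2 and eIF4E are control points for stress and growth signals.

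Cells of both groups were of C57BL/6 origin and had been transduced with lentivirus. shControl cells carried an empty vector and shLmna cells a short hairpin RNA against Lmna, so that an effect of carrying a hairpin and an effect of reduced Lmna cannot be told apart here. Each group held 2 libraries, numbered as in the sample titles. The labels do not say whether these came from separate cultures, so p-values measure the spread between 2 libraries, which may be technical. RNA was measured by bulk MARS-seq, in which the 3′ end of each transcript is captured at the poly(A) tail and tagged with a molecular identifier.

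Total counts per library were 2494880 to 3808843, of which initiation factor genes took 1.35 to 1.46%. Libraries of a group differed by more than counting noise, with a chi-square per degree of freedom of 7.03 for shControl and 3.94 for shLmna, and were treated as separate samples. Lmna counted 2826 and 2684 in the shControl libraries and 331 and 480 in the shLmna libraries, a log2 fold change of -2.61 (SE 0.142; adjusted p = 7.93e-06). Melanocyte markers summed to 20840 to 25630 CPM (counts scaled to 1000000 per library) in the 4 libraries, and none of the 10 was at 0 in all of them. Tyr, however, had only 1, 1, 3 and 7 counts in shControl 1, shControl 2, shLmna 1 and shLmna 2 and was not tested. Sox10 was lower in shLmna cells (log2 fold change -0.89), and Pmel (0.41), Mlana (0.51) and Gpr143 (0.51) were higher, each with an adjusted p under 0.05. Fibroblast, leukocyte and endothelial markers each summed to at most 17.96 CPM. Since RNA was taken from bulk cultures, fewer cells with a transcript and less of it per cell cannot be told apart.

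Because each count stands for the 3′ end of a transcript, the last 30 bases of the annotated transcript are shown for the members on which the results below turn. The first 8 are members whose level differed between the groups, and the last 3 are members that every cell is known to use and that had hardly any counts. Sequences were read from the GENCODE M21 transcript whose end lay nearest to that of the RefSeq gene (mouse build GRCm38, also called mm10), and they run from 5′ to 3′. Capitals mark AATAAA or ATTAAA, the common poly(A) signals, searched on the transcript strand only.
Eif3a, chr19:60761117-60761146, minus strand: tggtgataAATAAAatacttacataattgg
Eif4ebp2, chr10:61428491-61428520, minus strand: ttacagttaAATAAAgaccttgaatactga
Eif1ax, chrX:159389899-159389928, plus strand: ttttatgctgcacaaatatatgtataagtg
Eif1b, chr9:120495301-120495330, plus strand: agtgtgcatcctttatgagcgctgacctaa
Eif2b2, chr12:85226599-85226628, plus strand: tacaAATAAAagcagtttctccgtacaact
Eif3m, chr2:104999656-104999685, minus strand: aagttctaagtaaaacattatcaactgaaa
Eif2a, chr3:58557472-58557501, plus strand: atgtaaacaAATAAAgacattttaaatttg
Eif2s2, chr2:154871410-154871439, minus strand: caaggatcagtgcctcctgtgtaactagtg
Eif2s1, chr12:78886981-78887010, plus strand: agcgctgttacacagagaaaccctgtctcc
Eif4g2, chr7:111067750-111067779, minus strand: atggctgtagtcctctgtggtggtgtcctt
Eif5b, chr1:38055550-38055579, plus strand: atgctcagaAATAAAagtttcaggaacagt
A signal lay in this window in 27 of the 43 members that could be tested (62.8%) and in 70.1% of all tested genes with a transcript model. It was present in the window of Eif3a, Eif4ebp2, Eif2a and Eif2b2 and not in those of Eif1ax, Eif1b, Eif3m and Eif2s2. The end of Eif1a, a further member that differed, holds ATTAAA and is not printed, which makes 5 of 9. A window without these letters says nothing on whether that end is used in these cells.

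Of the 51 genes, 43 had enough counts to be tested. The remaining 8 were left out by the filter on low counts. Eif3j1 and Eif3j2, genes of the loosely bound eIF3j subunit, Eif2s3y, the Y-linked gene of eIF2 gamma, and Eif4e1b, an oocyte form of eIF4E, had 0 counts in all 4 libraries, which allows up to 3 counts, or 0.803 to 1.19 CPM, per library. For Eif3j2 that limit is uncertain, since 92.5% of the 31-base stretches of its end also occur in Eif3j1. These lie outside the annotated end of Eif3j1, which shares 0% with other genes, so the limit for Eif3j1 covers that end only. Eif5a2, a second eIF5A gene, had 5 counts in shControl 2 and 0 elsewhere. Eif2s1, the gene of eIF2 alpha, was listed with 0, 1, 2 and 2 counts in shControl 1, shControl 2, shLmna 1 and shLmna 2. Eif4g2, an eIF4G relative that does not bind eIF4E, was listed with 3, 2, 3 and 2 counts in the same order, and Eif5b with 2 counts in shLmna 2 and 0 in the others. For these genes no statement on a difference was possible at these counts.

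Most tested initiation factor transcripts differed little between shLmna and shControl cells. Differences are log2 fold changes of shLmna against shControl, tested with edgeR's quasi-likelihood test with Benjamini-Hochberg adjustment over all 9150 tested genes, and a gene passed at an adjusted p under 0.05. The median log2 fold change of the 43 members was -0.01, with quartiles of -0.21 and 0.21, beside a median of -0.00107 and quartiles of -0.30 and 0.27 over all tested genes. A difference of at most 0.5 in size was found for 32 of the 43 (74.4%), and for 71.9% of all tested genes. The members had a higher median level, at 135 CPM beside 32.6 CPM. At a mean of at least 100 CPM, such a difference was found for 89.3% of 28 members and 87.1% of 2017 genes. Under 100 CPM it was found for 46.7% of 15 members and 67.6% of 7133 genes.

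Of the 43 members, 9 passed: 6 were lower in shLmna cells and 3 were higher. The 6 lower members make 14% of the 43, where 9.74% of all tested genes passed in that direction. The 3 higher members make 6.98%, where 5.48% of all tested genes passed. Eif3a, Eif4ebp2 and Eif1ax were also lower by the study's 3 limits (adjusted p under 0.05, a log2 fold change over 1 in size and a mean normalized count over 5), which 5.88% of all tested genes met in that direction, and Eif1a and Eif2s2 were higher by the same limits, which 1.76% met. These counts moved with single libraries, as did those over all genes. Without shLmna 1, 2 members were lower (4.51% of all tested genes), and without shLmna 2, 3 were lower (4.35%). Without shControl 1, 6 members were higher (8.04% of all tested genes), and without shLmna 2 edgeR called 0 higher (0.935%), where 5 had an unadjusted p under 0.05. The values of the 2 libraries of a group did not overlap those of the other group for 32 of the 43 members (74.4%), 16 in each direction (37.2% each), while 60.1% of all tested genes showed such a separation (29.5% with shLmna above and 30.6% with shLmna below).

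**Figure D1:**
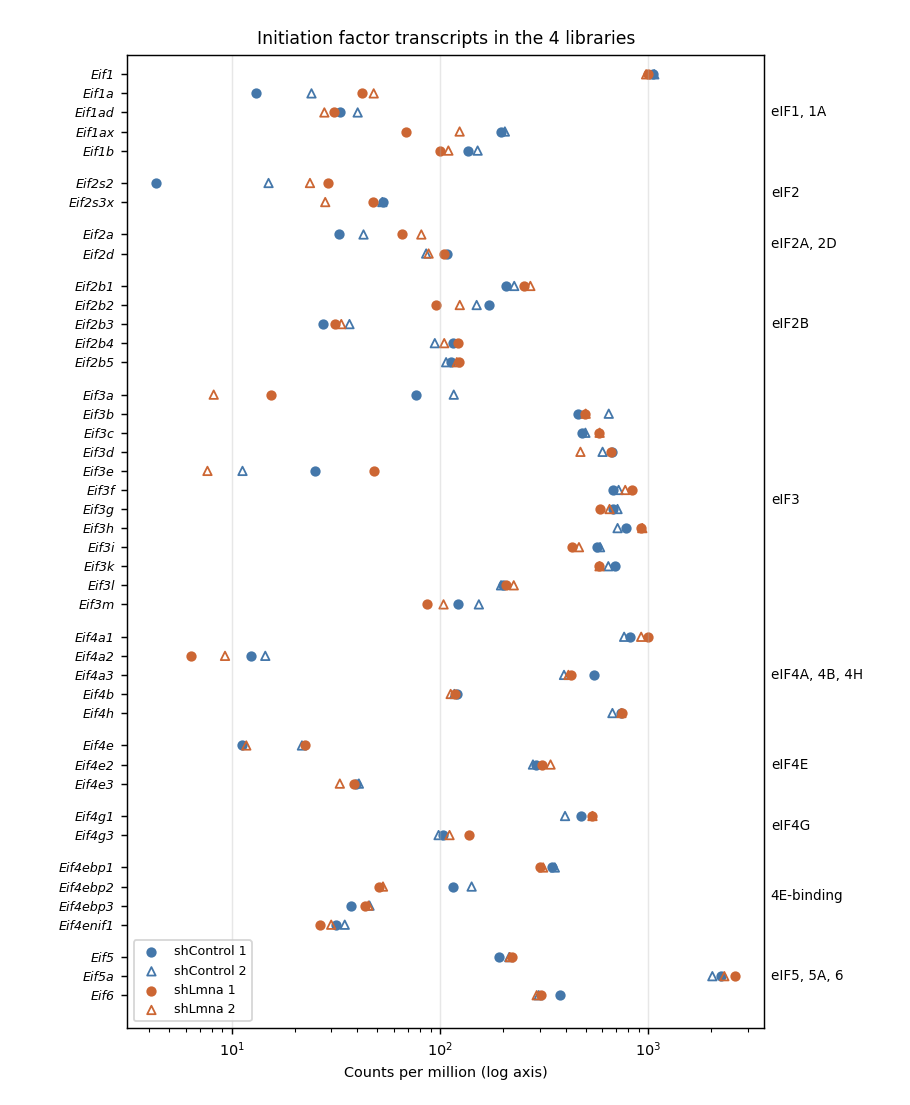
Counts scaled to 1000000 per library (CPM) of the 43 tested initiation factor genes in each of the 4 libraries, on a log axis, grouped by complex; blue marks are shControl and orange marks shLmna libraries, filled circles replicate 1 and open triangles replicate 2. The orange marks of Eif3a and Eif4ebp2 lie far to the left of the blue ones and those of Eif1a and Eif2a to the right, while for most genes the marks lie close together.

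**Figure D2:**
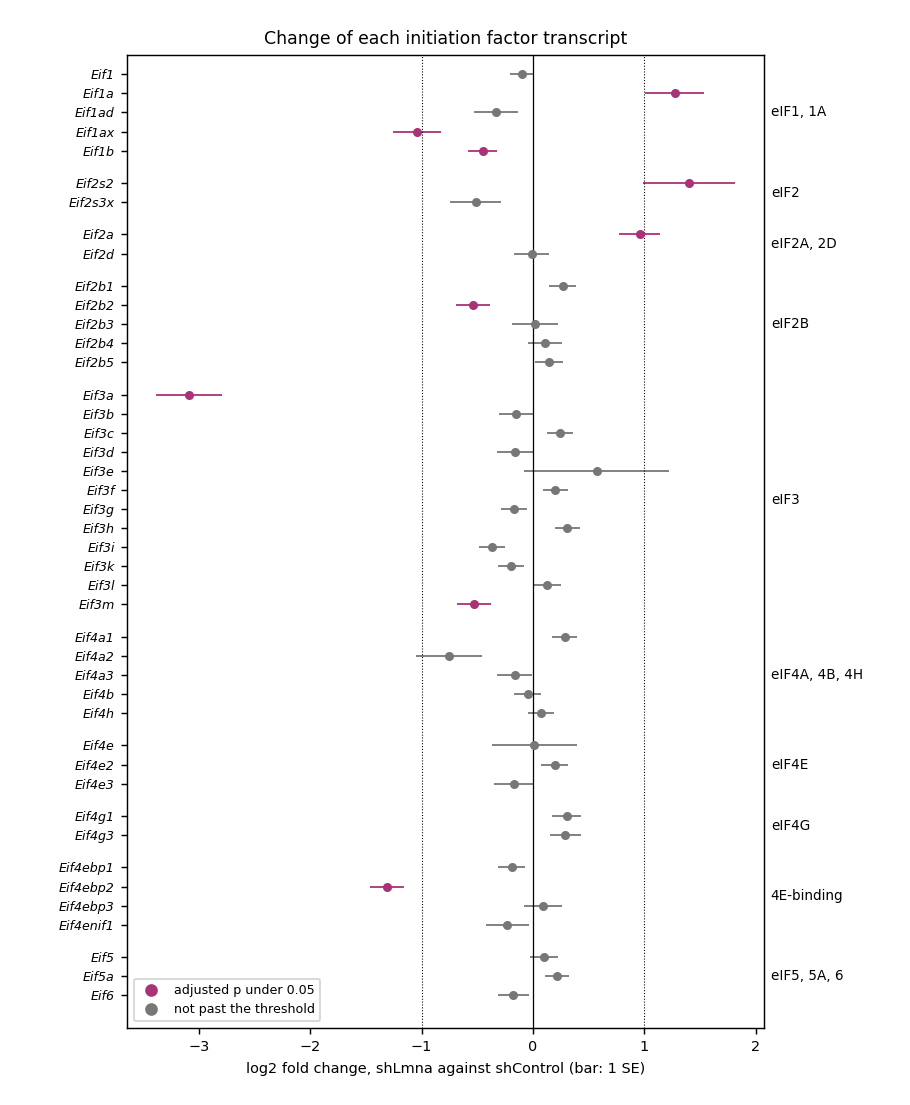
Log2 fold change of shLmna against shControl for each tested initiation factor gene, with bars of 1 standard error, grouped by complex; purple marks passed an adjusted p of 0.05 and dotted lines stand at -1 and 1. Eif3a stands apart at -3.09, Eif4ebp2 and Eif1ax lie below -1, Eif1a and Eif2s2 lie above 1, and most other marks lie near 0.

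eIF3 is the largest initiation factor, a complex of many subunits that holds the small ribosomal subunit and the mRNA together, and its subunit a, encoded by Eif3a, forms part of its scaffold. Eif3a lies at chr19:60761117-60790658 and showed the lowest log2 fold change among the 43 tested members. It reached 76.8 and 116 CPM in shControl 1 and 2 and 15.4 and 8.17 CPM in shLmna 1 and 2. Both shLmna libraries were far below both shControl libraries. The means were 96.5 ± 27.9 and 11.8 ± 5.13 CPM (SD, n = 2 each), a log2 fold change of -3.09 (SE 0.293; adjusted p = 0.000118), or 8.51-fold lower. Its end had the lowest GC content of the tested members (33.4%), and with a correction for GC content the log2 fold change was -1.96 (adjusted p = 0.000805).

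The other eIF3 transcripts lay much closer to 0. The 11 other tested subunit genes ranged from -0.53 to 0.57 on the log2 scale, with a median of -0.15. Among them Eif3m, a subunit of the core, passed with a small difference: it counted 122 and 153 CPM in shControl and 86.6 and 104 CPM in shLmna cells. Its groups did not overlap, and the log2 fold change was -0.53 (SE 0.155; adjusted p = 0.0468). Of the 31-base stretches in the last 1000 bases of Eif3m, 61.0% also occur in the processed gene copy Gm7658, so that its count is uncertain. Like shares were found for Eif4ebp3 (66.4%), Eif4a3 (47.8%), Eif3h (44.5%), Eif4a1 (44.3%), Eif3e (39.6%) and Eif1 (38.8%), whose counts are uncertain in the same way, and the tested members not named here reached at most 18.4%. That call was lost without shControl 2 (-0.35, adjusted p = 0.149), without shLmna 1 (-0.40, adjusted p = 0.312) and without shLmna 2 (-0.66, adjusted p = 0.133).

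Eif3i, of the module that also holds subunits b and g, came closest among those that did not pass, at 566 and 586 CPM in shControl and 428 and 464 CPM in shLmna cells. Its log2 fold change was -0.37 (SE 0.118; adjusted p = 0.0663). Values on either side of 0 were found for the others, with Eif3h at 0.31, Eif3c at 0.24, Eif3f at 0.20 and Eif3l at 0.13, and Eif3b at -0.15, Eif3d at -0.17, Eif3g at -0.17 and Eif3k at -0.20. None of these 8 passed. Eif3e could not be placed: it counted 25.1 and 11.2 CPM in shControl and 48.2 and 7.63 CPM in shLmna libraries, so that the libraries of a group differed more than the groups (log2 fold change 0.57, SE 0.655, adjusted p = 0.606), and the value was between -1.23 without shLmna 1 (adjusted p = 0.199) and 1.43 without shLmna 2 (adjusted p = 0.112), passing only without shControl 1 (1.23, adjusted p = 0.0341).

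Set against another scaffold subunit in the same libraries, Eif3a made up 14.4% and 15.3% of the counts of Eif3a and Eif3b together in shControl 1 and 2, and 3.02% and 1.61% in shLmna 1 and 2. The exact 95% binomial intervals, which cover counting error only, ran from 12.7 to 16.6% over the shControl libraries and from 1.09 to 4.11% over the shLmna libraries. With Eif3c in place of Eif3b, the share was 13.8% and 18.9% in shControl 1 and 2 and 2.60% and 1.38% in shLmna 1 and 2. The intervals of the shControl libraries then did not overlap each other (12.2 to 15.45% and 17.3 to 20.6%). No test was made on these or the following shares, since 2 libraries against 2 cannot pass an exact test at 0.05. Counts of a pair do not give the ratio of the proteins, since the 3′ ends of different genes need not be captured equally well.

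The eIF4E-binding proteins hold eIF4E away from eIF4G unless they are phosphorylated, and Eif4ebp2 encodes one of them. Eif4ebp2, at chr10:61428491-61452661, was, like Eif3a and Eif1ax, called lower by the study's 3 limits. It reached 116 and 142 CPM in shControl and 50.6 and 53.1 CPM in shLmna libraries. The groups were well separated and the shLmna libraries were nearly equal. Means of 129 ± 18.2 and 51.9 ± 1.77 CPM gave a log2 fold change of -1.31 (SE 0.15; adjusted p = 0.000384), or 2.48-fold lower.

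Its paralog Eif4ebp1 counted 346 and 355 CPM in shControl and 301 and 312 CPM in shLmna libraries, a log2 fold change of -0.19 (SE 0.118; adjusted p = 0.312). Eif4ebp2 thus made up 25.1% and 28.5% of the counts of both genes in shControl 1 and 2 and 14.4% and 14.5% in shLmna 1 and 2. The intervals ran from 22.9 to 30.6% over the shControl and from 12.2 to 16.9% over the shLmna libraries. Eif4ebp3, the third such gene, stood at 0.09, and Eif4enif1, which encodes a protein that carries eIF4E into the nucleus, at -0.23; neither passed.

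eIF1 and eIF1A bind the small subunit and take part in scanning for the start codon. eIF1A is encoded by Eif1a and by the X-linked Eif1ax, and the transcripts of these genes differed in opposite directions. Eif1ax, at chrX:159372178-159389928, reached 197 and 204 CPM in shControl and 68.8 and 124 CPM in shLmna libraries. Both shLmna libraries lay below the shControl libraries, but they lay far apart from each other. The log2 fold change was -1.04 (SE 0.218; adjusted p = 0.0111), and without shLmna 1 it was -0.69 (adjusted p = 0.0535).

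Eif1a, on chromosome 18, counted 13.01 and 24.1 CPM in shControl and 42.3 and 48.0 CPM in shLmna libraries. The shLmna libraries lay above both shControl libraries, with a log2 fold change of 1.27 (SE 0.267; adjusted p = 0.0113). Without shLmna 2 it did not pass (1.19, adjusted p = 0.114). Of the counts of both eIF1A genes, Eif1a made up 6.20% and 10.5% in shControl 1 and 2 and 38.1% and 27.9% in shLmna 1 and 2, with intervals from 4.501 to 12.8% over the former and from 24.4 to 44.0% over the latter. In both groups the intervals of the 2 libraries of the group did not overlap each other. The pair as a whole summed to 678 and 854 counts in the shControl and to 281 and 631 counts in the shLmna libraries.

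**Figure D3:**
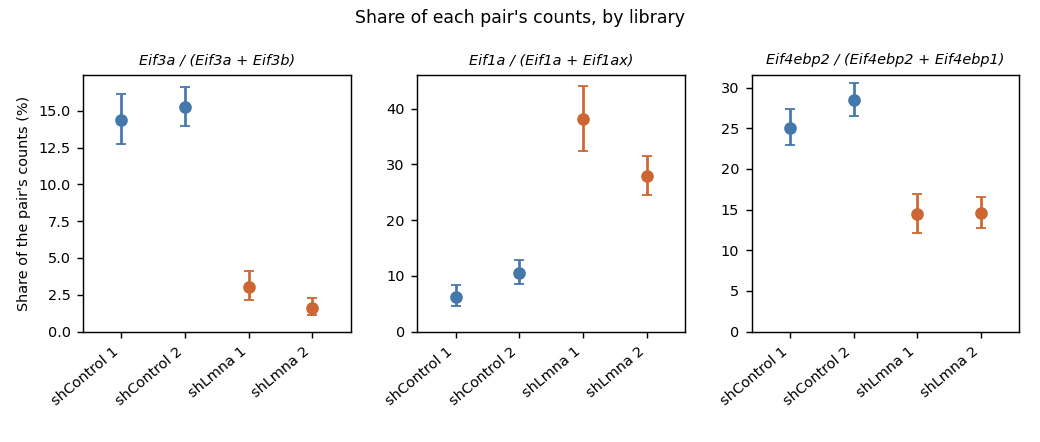
Share of the first gene in the summed counts of a pair of initiation factor genes, in percent, for each library, with exact 95% binomial intervals as bars; blue is shControl and orange shLmna. The share of Eif3a and of Eif4ebp2 was lower, and that of Eif1a higher, in both shLmna libraries than in both shControl libraries, with no overlap of the intervals between groups. For Eif1a the intervals of libraries of the same group did not overlap each other either.

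Eif1 and Eif1b both encode eIF1. Eif1b, at chr9:120492232-120495330, counted 136 and 151 CPM in shControl and 100.1 and 109 CPM in shLmna libraries. The groups did not overlap, and the log2 fold change was -0.45 (SE 0.129; adjusted p = 0.0425). It did not pass without shControl 2 (-0.38, adjusted p = 0.104), without shLmna 1 (-0.39, adjusted p = 0.286) or without shLmna 2 (-0.51, adjusted p = 0.169). Eif1, with 975 to 1067 CPM in the 4 libraries, stood at -0.10, and Eif1ad, named for an eIF1A-like domain, at -0.33, and neither passed.

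eIF2 carries the initiator tRNA to the ribosome as a complex of alpha, beta and gamma subunits. Its beta subunit is encoded by Eif2s2, at chr2:154871410-154892935, which had few counts. Its counts were 14 and 56 in the shControl libraries against 73 and 87 in the shLmna libraries, or 4.34 and 15.0 CPM and 28.9 and 23.7 CPM. Both shLmna libraries were higher, but the shControl libraries lay far apart. The log2 fold change was 1.40 (SE 0.417; adjusted p = 0.0492), with 0.80 (adjusted p = 0.0369) without shControl 1 and 2.58 (adjusted p = 7.59e-06) without shControl 2. It did not pass without shLmna 1 (1.27, adjusted p = 0.207), without shLmna 2 (1.57, adjusted p = 0.168) or with DESeq2 (1.43, adjusted p = 0.0626). Eif2s3x, the X-linked gene of the gamma subunit, stood at -0.51 (SE 0.229; adjusted p = 0.165), so that the 2 measurable eIF2 subunit transcripts lay on opposite sides of 0.

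Eif2a encodes eIF2A, a separate protein that can deliver initiator tRNA without eIF2 and is not the alpha subunit of eIF2. At chr3:58525821-58557501, it reached 32.8 and 42.8 CPM in shControl and 65.7 and 81.2 CPM in shLmna libraries. The groups did not overlap, and the means of 37.8 ± 7.07 and 73.4 ± 10.99 CPM gave a log2 fold change of 0.96 (SE 0.183; adjusted p = 0.00741). It did not pass without shLmna 2 (0.81, adjusted p = 0.106). Eif2d, whose product has a like role and also acts in ribosome recycling, lay at 85.7 to 107.5 CPM with a log2 fold change of -0.01 (SE 0.156).

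eIF2B is the exchange factor that returns eIF2 to its active form, and its 5 subunits are encoded by Eif2b1 to Eif2b5. Eif2b2, the gene of the beta subunit, at chr12:85219481-85226628, reached 172 and 150 CPM in shControl and 95.3 and 124 CPM in shLmna libraries. Its groups did not overlap, with a log2 fold change of -0.54 (SE 0.153; adjusted p = 0.0412). Without shLmna 1 the value was -0.36 (adjusted p = 0.314), and without shLmna 2 it was -0.74 (adjusted p = 0.0792). The other subunits did not pass, with Eif2b1 at 0.27, Eif2b5, the catalytic subunit, at 0.14, Eif2b4 at 0.11 and Eif2b3 at 0.02.

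With all 4 libraries and no correction, no transcript of eIF4E, eIF4G or the eIF4A helicases passed. Eif4e counted 11.2 and 21.7 CPM in shControl and 22.5 and 11.7 CPM in shLmna libraries, so that the groups overlapped fully, and the log2 fold change was 0.01 with a standard error of 0.379. The relatives Eif4e2, whose product binds caps without binding eIF4G, and Eif4e3 stood at 0.19 (SE 0.121; adjusted p = 0.323) and -0.17. Eif4g1, the main scaffold, reached 474 and 398 CPM in shControl and 536 and 539 CPM in shLmna libraries. All shLmna values of Eif4g1 were higher, but the log2 fold change of 0.30 did not pass (SE 0.129; adjusted p = 0.148), and Eif4g3 stood at 0.29. Eif4g3 passed at 0.95 with GC correction (adjusted p = 0.00472), and Eif4g1 passed without shControl 1 (0.44, adjusted p = 0.022), with GC correction and block (0.35, adjusted p = 0.0368) and with the batch-corrected values (0.18, adjusted p = 0.0331).

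Among the helicases and their helpers, Eif4a1, the main initiation helicase, counted 814 and 765 CPM in shControl and 1000 and 923 CPM in shLmna libraries (log2 fold change 0.28, SE 0.114, adjusted p = 0.125). Its paralog Eif4a2 counted 12.4 and 14.5 CPM in shControl and 6.33 and 9.26 CPM in shLmna libraries (log2 fold change -0.76, SE 0.298, adjusted p = 0.12). The groups of both genes were separate, in opposite directions, and neither passed. Eif4a3, which works in the exon junction complex, stood at -0.16, and Eif4b and Eif4h, whose products stimulate the helicase, at -0.05 and 0.07.

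The later factors also did not pass. Eif5a, whose product acts in peptide bond formation and carries the modified residue hypusine, was the member with the highest count, at 2221 and 2028 CPM in shControl and 2618 and 2315 CPM in shLmna libraries. Its log2 fold change was 0.22 (SE 0.108; adjusted p = 0.216). Eif5, which encodes the GTPase activator of eIF2, stood at 0.10, and Eif6, which encodes a factor that keeps the large subunit apart from the small one, at -0.18. Over the 34 tested members that did not pass, log2 fold changes ran from -0.76 to 0.57, and 6 had an unadjusted p under 0.05.

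The calls were set beside 2 properties of the measured transcripts, level and base composition. Of the 28 members with a mean of at least 100 CPM, 4 were lower and 0 higher, where 209 lower and 142 higher were found among 2017 tested genes of that level. With edgeR, 8 of these 28 had an unadjusted p under 0.05, as had 676 of the 2017 genes. DESeq2 called 1 of the 28 lower and 0 higher, and of all tested genes of any level 6.63% lower and 2.58% higher. Other fits called some of the 28 higher: 1 with the replicate block (Eif3h), 2 with GC correction (Eif4g3 and Eif5), 3 with both, 2 without shControl 1 (Eif3h and Eif4g1) and 7 with the batch-corrected values. The shares of all tested genes of any level that were higher also differed between these fits. They were 9.31% with the block, 8.87% with GC correction, 12.9% with both and 17.2% with the batch-corrected values. Shares among genes of at least 100 CPM were not taken for these fits. Of the 15 members under 100 CPM, 2 were lower and 3 higher in the main fit, beside 682 and 359 of 7133 genes.

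In these libraries the size and the direction of change also went with the share of G and C in the last 1000 transcript bases. At a GC content up to 42%, 502 of 2576 tested genes were lower and 214 higher, and above it, 384 of 6527 were lower and 284 higher. The members had a median GC content of 47.0%, as had all tested genes, and 12 members lay at 42% or less. Of these 12, Eif3a (33.4%) and Eif1ax (37.1%) were lower and Eif1a (38.3%) and Eif2a (39.3%) higher. Of the 31 members above 42%, 4 were lower, among them Eif4ebp2 (51.0%), and 1 was higher, Eif2s2 (42.1%).

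With a correction for GC content in each library, the difference of Eif3a was smaller and still passed. Eif4ebp2 hardly moved (-1.30), while Eif1ax (-0.65, adjusted p = 0.054), Eif1b (-0.42, adjusted p = 0.0545) and Eif2b2 (-0.50, adjusted p = 0.0503) no longer passed. Eif1a (1.51) and Eif2a (1.08) passed with slightly larger values. Eif4g3 (GC content 35.7%) and Eif5 (37.7%) then passed as higher, at 0.95 (adjusted p = 0.00472) and 0.40 (adjusted p = 0.0444). After this correction 3 members were lower and 5 higher, and of all tested genes 8.01% were lower and 8.87% higher.

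**Figure D4:**
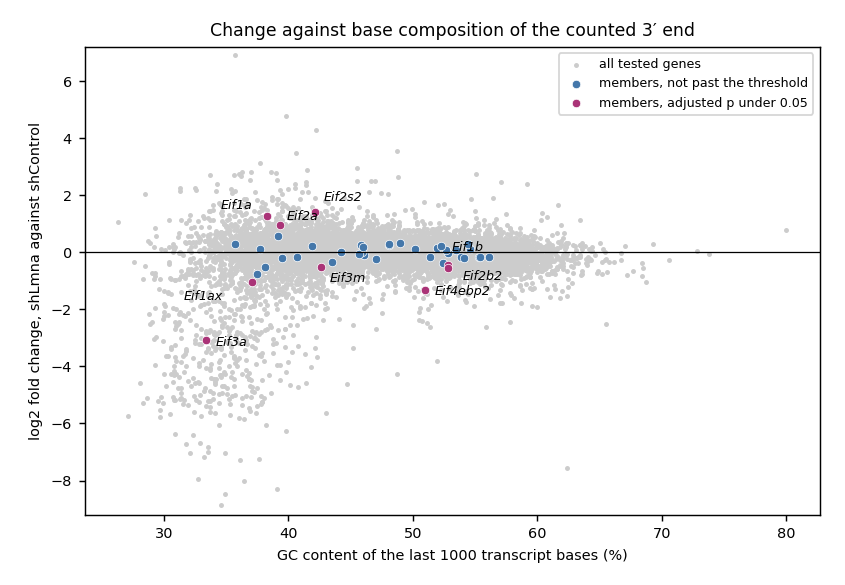
Log2 fold change of shLmna against shControl against the GC content of the last 1000 transcript bases, in percent, for all tested genes with a transcript model (grey) and the 43 tested initiation factor genes (blue, or purple where the adjusted p was under 0.05). Genes with low GC content hold most of the large decreases and also most of the large increases. Eif3a, at 33.4%, lies among the decreases, while Eif4ebp2, at 51.0%, lies below the bulk of genes of like GC content.

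Among the 15 other ways in which the data were processed or the libraries chosen, Eif3a and Eif4ebp2 passed in all. Eif3a ranged from -3.56 to -0.94 and Eif4ebp2 from -1.44 to -0.55, the smallest sizes coming from the authors' batch-corrected log2 values. The 3 higher members passed with all but 1 (Eif1a and Eif2a) or all but 3 (Eif2s2) of these. Eif1b, Eif2b2 and Eif3m lost their call under 7, 6 and 6 of them. No member that passed changed its direction.

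**Figure D5:**
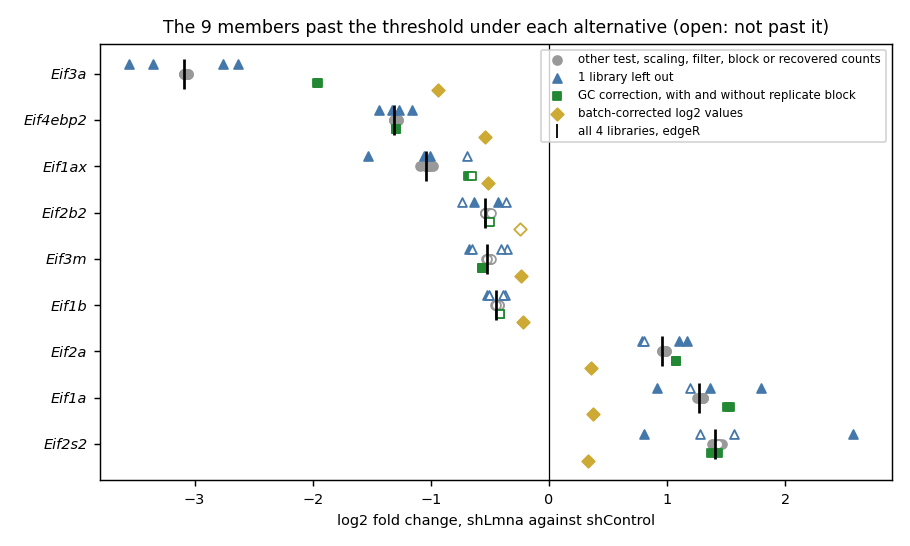
Log2 fold change of shLmna against shControl for the 9 initiation factor genes that passed, with all 4 libraries in edgeR (black bars) and under 15 alternatives (marks; filled where the adjusted p was under 0.05, open where not). Each gene kept its side of 0, and Eif3a and Eif4ebp2 show filled marks only.

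Genes that act beside the initiation factors were counted from 4 lists taken by membership. Of their 41 genes, 37 were tested, 4 were lower (10.8%, beside 9.74% of all tested genes) and 3 higher (8.11%, beside 5.48%), with a median log2 fold change of -0.10. Among 7 tested kinases, phosphatase subunits and related regulators of eIF2, Eif2ak1, the heme-regulated eIF2 alpha kinase, was lower, at 75.6 and 75.5 CPM in shControl and 49.8 and 45.8 CPM in shLmna libraries. The groups of Eif2ak1 were separate (log2 fold change -0.66, SE 0.144, adjusted p = 0.0132), but it did not pass without shLmna 1 (-0.72, adjusted p = 0.0783) or without shLmna 2 (-0.59, adjusted p = 0.148), nor with DESeq2 on all libraries (-0.66, adjusted p = 0.0672). The kinases Eif2ak2, Eif2ak3 and Eif2ak4 stood at 0.17, -0.59 and 0.29 and did not pass.

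Among 15 tested helpers of initiation, 3 were lower (20%, beside 9.74% of all tested genes) and 1 higher (6.67%, beside 5.48%). Paip2, an inhibitor of the poly(A)-binding protein, counted 61.9 and 68.8 CPM in shControl and 30.5 and 40.1 CPM in shLmna libraries (log2 fold change -0.88, SE 0.178, adjusted p = 0.00975), and did not pass without shLmna 1 (-0.70, adjusted p = 0.1002). Bzw2, whose product is an eIF5 mimic, was higher, at 268 and 275 against 394 and 371 CPM (log2 fold change 0.49, SE 0.119, adjusted p = 0.0217), and did not pass without shLmna 1 (0.45, adjusted p = 0.159) or shLmna 2 (0.55, adjusted p = 0.105).

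Bzw1, which encodes a related mimic, had 28 and 200 counts in shControl 1 and 2 and 3 counts in each shLmna library (adjusted p = 0.00731), and the helicase gene Ddx3x 13 and 224 against 1 and 11 (adjusted p = 0.0367). For both, shControl 2 was far above shControl 1. No fold is given for either, since the count lies at or under the floor of 3 in both shLmna libraries for Bzw1 and in shLmna 1 for Ddx3x. Ddx3x did not pass without shControl 2 (adjusted p = 0.413), without shLmna 1 or shLmna 2 (adjusted p = 0.177 in both), with DESeq2 (adjusted p = 0.172), with GC correction (adjusted p = 0.0842) or with the batch-corrected values (adjusted p = 0.0583). Bzw1 did not pass without shLmna 2 (adjusted p = 0.122). The last 1000 bases of these genes hold 35.1% (Bzw1) and 33.7% (Ddx3x) G and C.

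Factors of the later steps of translation were counted as well. Of 8 tested elongation factor genes, edgeR called 0, and 1 had an unadjusted p under 0.05. Eef2, the translocase, stood at 0.02 and Eef1a1, which brings aminoacyl-tRNA to the ribosome, at 0.16. Of 7 tested genes listed under termination and recycling, 2 were higher, beside 5.48% of all tested genes. In all, 6 of these 7 had an unadjusted p under 0.05, as had 2750 of all 9150 tested genes. The 6 lay in both directions, with Gspt2, a release factor gene, at -1.48 and Pelo, a ribosome rescue gene, at -0.40. Abce1, the recycling factor that splits ribosomes, reached 66.3 and 62.6 CPM in shControl and 141 and 145 CPM in shLmna libraries, with no overlap and little spread within groups (log2 fold change 1.15, SE 0.128, adjusted p = 0.00033). Abce1 passed under all 15 alternatives, from 0.52 to 1.40. Abcf1, whose product binds eIF2 and is known from initiation although it was listed here, stood at 0.46 (SE 0.128; adjusted p = 0.0372), and did not pass without shControl 2 (0.37, adjusted p = 0.104), shLmna 1 (0.39, adjusted p = 0.263) or shLmna 2 (0.56, adjusted p = 0.129), nor with DESeq2 (0.47, adjusted p = 0.0763).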

How the data were processed

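RNA of 2 shControl and 2 shLmna libraries was profiled by MARS-seq. Per the study's methods and the submitters' notes, the authors trimmed reads with Cutadapt, aligned them to mm10 with STAR 2.4.2a and counted with HTSeq those that fell in the 1000 bases at the 3′ end of each RefSeq gene. The authors deposited raw counts per gene, used here for the main test. They also deposited a table of signal per library (counts divided by size factors) and a table of log2 values corrected with ComBat. The signal table also held the authors' own p-values, which were not used. Whole counts recovered from that signal (100% within 0.01) gave 1 alternative input, as did the log2 values. The matrix was 1.08 to 1.09 times these counts in every library and lower for 0 genes, so the tables do not hold the same counts. The study marked duplicates by molecular identifier; whether the matrix holds reads before or after their removal is not given in the sources used here.

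Counts were fitted with edgeR 4.0.16 (R 4.3.3; TMM, filterByExpr, group as the only term, two-sided quasi-likelihood test, Benjamini-Hochberg over 9150 genes). The common biological coefficient of variation was 0.127. Alternatives used DESeq2 1.42.0, limma 3.58.1, other normalizations, other filters, a loess GC correction (span 0.3), a replicate block and each library left out, 15 in all. CPM were scaled by the totals of the tested genes and TMM factors. GC content was read from GENCODE M21 transcripts.

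The genes described in full were those with an adjusted p under 0.05, and in a complex without any, the member with the smallest unadjusted p and that with the highest CPM; Lmna, genes under the filter and genes of the other lists that passed were also named. Eif3e, Eif4e, Eif3i, Eif2s3x, Eif4ebp1 and the genes of the other lists that did not pass were named after their values were seen. Members and lists were chosen with earlier results of these data known.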

Additional observations from a re-analysis of the deposited data

How the results depend on the processing

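Of 135 values of the 9 members that passed, under 15 alternatives, 109 kept their direction and their side of the threshold, 26 no longer passed and 0 turned. For the 34 other tested members, 460 of 510 values kept both, 27 newly passed and 23 turned, none of which passed. Of 105 values of the 7 named genes of the other lists, 88 kept both and 17 no longer passed. Lmna passed in all 15, from -2.75 to -1.54.

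The 6 lower members became 3 with DESeq2, 3 with GC correction and 10 with the batch-corrected values, and 2 to 8 with 1 library left out. The 3 higher members became 5 with GC correction, 6 with GC correction and replicate block and 10 with the batch-corrected values, and 0 to 6 with 1 library left out. By the study's 3 limits, the 3 lower members became 0 and the 2 higher members 0 with the batch-corrected values, DESeq2 gave 1 higher, and leaving out 1 library gave 2 to 3 lower and 0 to 3 higher. The 4 lower and 3 higher genes of the other lists became 2 lower with DESeq2, 7 lower and 5 higher with the replicate block, 5 higher with GC correction, 6 higher with both, 10 lower and 7 higher with the batch-corrected values, and 1 to 6 lower and 1 to 6 higher with 1 library left out. Over all genes, 1392 passed, against 843 with DESeq2, 2124 with GC correction and replicate block, 3781 with the batch-corrected values and 503 to 2104 with 1 library left out. Where a library is left out, the lone library of its group is assumed to vary like the other group. Of all tested genes, 6.63% were lower with DESeq2, 8.01% with GC correction and 19.1% with the batch-corrected values. Shares of higher genes were 8.87% with GC correction, 12.9% with GC correction and replicate block and 17.2% with the batch-corrected values. By the study's 3 limits, 538 of 9150 tested genes were lower and 161 higher in the main fit. With the batch-corrected values 28 of 10417 were lower and 2 higher, and with DESeq2 74 of 9150 were higher. Causes of these shifts were not tested.

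With the replicate number as a block, 8 members were lower and 4 higher, beside 13.3% and 9.31% of all tested genes. Libraries of like number did not deviate together across genes (correlation 0.0129 across 9150 genes). The labels name nothing but the number that they share, and this value cannot show whether some genes varied together.

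Signs turned for 11 members that had not passed. Eif2d was positive with upper quartile scaling (0.0191), library totals (0.0209), the stricter filter (0.00126), GC correction (0.0234) and GC correction with block (0.0311), and ran from -0.17 to 0.16 with 1 library left out. Eif2b3 (-0.0437 and -0.0398) and Eif4e (-0.0376 and -0.0409) were negative with GC correction, without and with the block, and ran from -0.17 to 0.25 and from -0.49 to 0.57 with 1 library left out. The others turned only with 1 library left out: Eif2b4 (-0.0381 to 0.26), Eif3b (-0.37 to 0.12), Eif3d (-0.43 to 0.0733), Eif3e (-1.23 to 1.43), Eif4a3 (-0.38 to 0.0929), Eif4b (-0.0760 to 0.00254), Eif4ebp3 (-0.0406 to 0.24) and Eif6 (-0.34 to 0.00598).

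Of 165 medians of the complexes and of all members, 13 moved by more than the spread between libraries. That of eIF4G went from 0.30 to 0.65 with GC correction. That of eIF2 went from 0.44 to 1.41 with no filter on low counts, where Eif2s1, with its few counts, joined the list. Eif2s2 (1.41) and Eif2s3x (-0.51) themselves hardly moved there.

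Low counts limit what can be said of the 8 members that were not tested, and of Eif2s2, Eif4e, Eif3e and Eif4a2. The largest count of these 4 in any library was 122. Why these counts were low was not tested.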
